A study of Homo sapiens with 2 samples.

Results

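LIMS1 and the genes of the complex its protein forms were followed in RNA-seq gene counts of H460, an established line of human large-cell lung carcinoma. The 7 members, chosen by gene ID and symbol, are LIMS1, LIMS2, ILK, PARVA, PARVB, RSU1 and FERMT2, out of 22965 genes listed. LIMS1 was picked because its ratio between the libraries was large, so its values are a description. The other members were taken as its partners. The study set 1 library of cells labelled vector beside 1 library of cells in which pSin-puro delivered PKP2, both grown in DMEM with 10% FBS and at passage 5, to look for genes that act after PKP2. The PKP2 protein, plakophilin 2, belongs to the armadillo family and is part of desmosomes, the spot-like junctions between cells. The labels do not say whether either culture was a clone or a pool.

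The complex links integrins to actin filaments at focal adhesions, the sites where cells hold on to their matrix. Integrin-linked kinase (ILK) binds a PINCH protein, encoded by LIMS1 or LIMS2, on one side and a parvin, encoded by PARVA or PARVB, on the other. PINCH proteins are built of LIM domains, parvins bind actin, RSU1 binds PINCH1, and kindlin-2, encoded by FERMT2, binds both ILK and the tails of beta integrins. The proteins of the complex are known to depend on one another for their stability, which counts of RNA do not show.

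The vector library held 23513304 counts and the PKP2 library 20319137. With 1 library per group there is no replicate check, no test across samples and no p-value. Each ratio is a log2 value, positive where the PKP2 library is the higher one, of counts scaled to library size (CPM, the usual unit of such counts), and its 95% interval covers counting error only. PKP2 itself had 181 and 1330 counts, a ratio of 3.11. Keratin genes of epithelial cells were high in both libraries, KRT8 at 697 and 465 CPM (ratio -0.58) and KRT19 at 274 and 578 CPM (ratio 1.08). EPCAM had only 28 and 16 counts, and CDH1 was not among the listed genes. The 4 epithelial genes listed, EPCAM, KRT8, KRT18 and KRT19, had a median ratio of -0.49, with 3 below 0 and 1 above. Of 6 lung lineage and squamous marker genes, 3 were listed, with 21 and 4 counts in sum. Among leukocyte and endothelial marker genes, 4 had any count; CD68 had 362 and 412 counts, and LYZ, VWF and KDR had 4 or fewer. Of 5 fibroblast marker genes, 3 were listed, with 267 and 278 counts in sum; COL1A1 had 132 and 48 and PDGFRB 111 and 208. The part of these markers in the ratios below was not tested. In bulk RNA, fewer cells of a type and less RNA per cell cannot be told apart.

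Near copies limit how LIMS1 can be counted, so the sequences come first. LIMS3 and LIMS4, on the same chromosome 2, carry most of the coding sequence of LIMS1 in nearly the same letters. Their coding sequences matched that of LIMS1 in 1085 of 1104 aligned bases, or 98.3%, and matched each other in all 1197 bases. LIMS2, also on chromosome 2, matched LIMS1 in 744 of 930 aligned bases, or 80.0%. The first stretch shown, bases 463 to 552 of the LIMS1 coding sequence counted from its start codon, is one where a read of LIMS1 cannot be told from a read of either copy; of the in-frame stretches of 90 bases alike in all 3 genes, it has the most differences in LIMS2. Capitals mark bases that differ from LIMS1, and there were 28 in LIMS2 and none in LIMS3 or LIMS4.
LIMS1: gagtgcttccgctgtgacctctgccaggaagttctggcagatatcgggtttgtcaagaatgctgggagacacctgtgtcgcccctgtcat
LIMS3: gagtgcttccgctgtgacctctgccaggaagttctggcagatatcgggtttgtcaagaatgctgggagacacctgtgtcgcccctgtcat
LIMS4: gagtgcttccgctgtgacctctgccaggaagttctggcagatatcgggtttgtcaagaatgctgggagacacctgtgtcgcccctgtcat
LIMS2: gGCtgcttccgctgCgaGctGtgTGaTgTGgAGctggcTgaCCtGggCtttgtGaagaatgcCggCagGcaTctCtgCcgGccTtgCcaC

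The second stretch, bases 1021 to 1104, is where the copies part from LIMS1. It holds 11 of the 19 bases at which LIMS3 or LIMS4 differs, and 15 bases at which LIMS2 differs. All sequences are transcripts of GENCODE release 29 (GRCh38), given in the direction of transcription.
LIMS1: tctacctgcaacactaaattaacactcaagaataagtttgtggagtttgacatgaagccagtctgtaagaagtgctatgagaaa
LIMS3: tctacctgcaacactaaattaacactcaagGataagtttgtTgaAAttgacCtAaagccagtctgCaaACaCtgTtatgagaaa
LIMS4: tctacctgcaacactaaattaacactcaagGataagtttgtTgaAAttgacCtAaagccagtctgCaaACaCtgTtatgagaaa
LIMS2: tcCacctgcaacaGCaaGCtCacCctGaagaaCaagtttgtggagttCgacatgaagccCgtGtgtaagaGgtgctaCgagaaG

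LIMS1 (ENSG00000169756), the gene of PINCH1, had 506 counts with the vector and 2322 with PKP2, which is 21.3 and 115 CPM. The PKP2 library was thus 5.41-fold higher (interval 4.91 to 5.96), a log2 ratio of 2.43. This ratio was number 32 from the top of the 15991 genes whose mean reached 10 counts, and number 8 of the 11637 whose mean reached 100 counts. Of the 6 members with a mean of at least 10 counts, LIMS1 was at least 2-fold higher, none was at least 2-fold lower and 5 were within 2-fold. Of all 15991 genes with such a mean, 2.47% were higher by 2-fold or more, 4.61% were lower by as much, and the median ratio was -0.03. The median of the 6 members was 0.17.

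**Figure D1:**
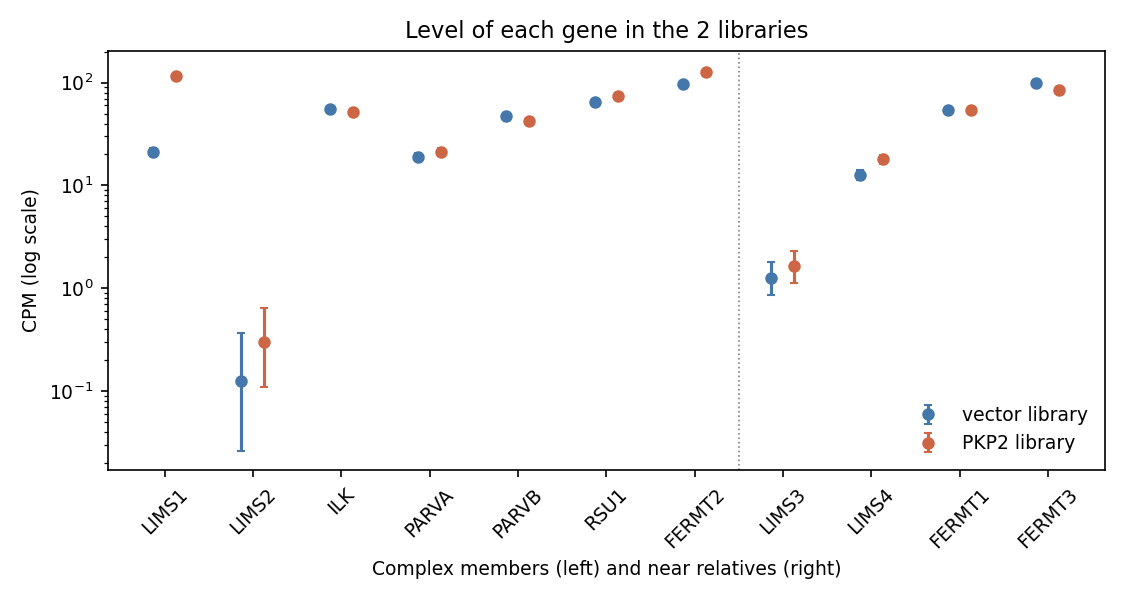
CPM of each gene, on a log axis, in the vector library (blue) and the PKP2 library (orange), with members left of the dotted line and near relatives right of it; bars are exact 95% Poisson intervals, which cover counting error only. LIMS1 goes from 21.3 to 115 CPM, while LIMS2 stays under 1 CPM in both libraries and each of the other genes differs by less than 2-fold.

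LIMS3 and LIMS4 had smaller ratios than LIMS1. LIMS4 (ENSG00000256671) had 299 and 362 counts and stood at 0.51 (interval 0.29 to 0.74), whereas LIMS3 (ENSG00000256977) had 30 and 33, a ratio of 0.37 with an interval from -0.38 to 1.14. LIMS1 shared 28.2% of its 31-base stretches with another listed gene, 23.2% with LIMS3, 20.7% with LIMS4 and 12.9% with ENSG00000257207, which had 1 and 6 counts. Summed over LIMS1 and these 3 genes, a grouping chosen after the values were seen, the counts were 836 and 2723, a ratio of 1.94 (interval 1.83 to 2.05). LIMS1 held 60.5% of the summed counts with the vector and 85.3% with PKP2. How reads that match several genes were counted is not given in the sources used here. The sum does not change with how such reads were divided among these genes, but it would if they were dropped or counted more than once. Summed instead with all 9 genes that share at least 50 stretches with LIMS1, most of them through repeats, the ratio was 0.32, and LIMS1 held 0.621% and 2.69% of those counts. All of LIMS4's stretches and 99.2% of those of LIMS3 occur in another listed gene, so the separate levels of the copies are uncertain.

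LIMS2 (ENSG00000072163), the gene of PINCH2, was near the lowest level that could be counted. Its counts were 3 with the vector and 6 with PKP2, 0.126 and 0.298 CPM, a ratio of 1.24 with an interval from -0.99 to 3.86. A difference was not detectable at this depth, and LIMS2 is the member below the mean of 10 counts. None of its 31-base stretches occurs in another listed gene. Of the counts of LIMS1 and LIMS2, LIMS1 took 99.4% with the vector (exact interval 98.3% to 99.9%) and 99.7% with PKP2 (99.4% to 99.9%). The counts of LIMS3 and LIMS4 are not part of these shares.

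ILK (ENSG00000166333), the scaffold between PINCH and parvin, had 1306 and 1051 counts, or 55.0 and 52.2 CPM. Its ratio was -0.08 (interval -0.20 to 0.04), so the 2 libraries did not differ beyond counting error. Exons of TAF10, a subunit of the general transcription factor TFIID, lie on the opposite strand and share 57.9% of ILK's 31-base stretches. TAF10 had 856 and 563 counts, a ratio of -0.37. Whether counting used strand is not given in the sources used here; without it, reads of ILK and TAF10 cannot be told apart where they overlap. The sum of ILK, TAF10 and ENSG00000254400 had a ratio of -0.18 (interval -0.28 to -0.09), still within 2-fold.

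The parvins, which connect ILK to actin, lay on either side of 0. PARVA (ENSG00000197702) had 448 and 425 counts, 18.9 and 21.1 CPM, and a ratio of 0.16 with an interval from -0.03 to 0.36. PARVB (ENSG00000188677) had 1135 and 860 counts, 47.8 and 42.7 CPM, a ratio of -0.16 (interval -0.29 to -0.03). Of the counts of both parvins PARVA took 28.3% with the vector (exact interval 26.1% to 30.6%) and 33.1% with PKP2 (30.5% to 35.7%). Per kilobase of transcript its share was 19.7% and 23.5%, so PARVB was the more abundant parvin in both libraries. The coding sequences of the parvins matched in 75.4% of 840 aligned bases. PARVG, the third parvin gene, was not among the listed genes.

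RSU1 and FERMT2 were slightly higher in the PKP2 library. RSU1 (ENSG00000148484), the leucine-rich repeat partner of PINCH1, had 1550 and 1492 counts, 65.3 and 74.1 CPM, a ratio of 0.18 (interval 0.08 to 0.29). FERMT2 (ENSG00000073712) had 2321 and 2578 counts, 97.8 and 128 CPM, a ratio of 0.39 (interval 0.31 to 0.47). Both differences exceed counting error and are far under 2-fold. The other kindlin genes were FERMT1, of epithelial cells, at 1290 and 1092 counts with a ratio of -0.00 (interval -0.12 to 0.11), and FERMT3, known mainly from blood cells, at 2376 and 1699 counts with a ratio of -0.25 (interval -0.34 to -0.16). Per kilobase FERMT3 stood at 40.4 with the vector and 34.0 with PKP2, FERMT2 at 29.0 and 38.0, and FERMT1 at 10.6 and 10.5 CPM. FERMT3 was thus the highest of the 3 in the vector library and FERMT2 in the PKP2 library, where principal transcripts are used; with the longest transcripts FERMT3 was the highest in both, at 40.2 and 33.9 against 16.3 and 21.3 for FERMT2. The leukocyte genes PTPRC and CD3E were not among the listed genes.

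**Figure D2:**
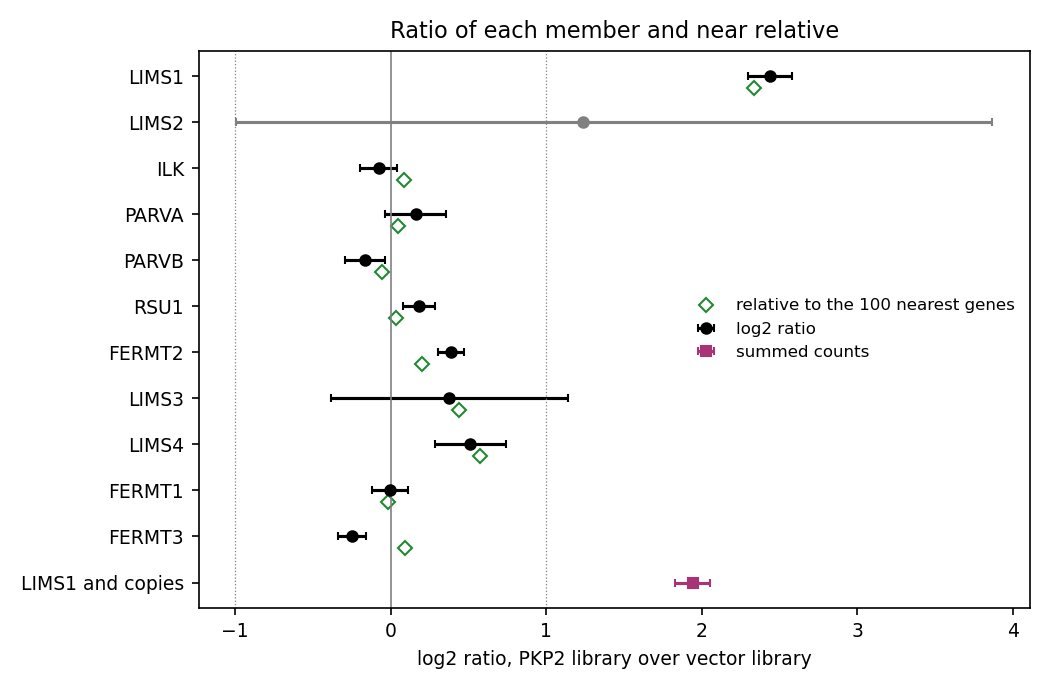
Log2 ratio of the PKP2 library over the vector library for each member and near relative (circles; grey for LIMS2, with a mean under 10 counts) and for the summed counts of LIMS1 and its copies (square), with 95% intervals of counting error; diamonds are ratios after subtracting the median of the 100 genes most alike in GC content and length, and dotted lines mark 2-fold. LIMS1 at 2.43 and its sum at 1.94 lie past 2-fold, and the other members with enough counts lie between -0.16 and 0.39.

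Ratios were lower in genes of higher GC content, with a Spearman's rho of -0.61 over 11610 genes that share the same 2 libraries, so each member was also set against the 100 genes nearest to it in GC content and length. LIMS1 was then at 2.34. The 5 partners with enough counts moved closer together, from a range of -0.16 to 0.39 to one of -0.06 to 0.20. ILK stood at 0.09, PARVA at 0.05, PARVB at -0.06, RSU1 at 0.035 and FERMT2 at 0.20 on this measure. Relative to their nearest genes, 2.44% of all genes were at least 2-fold higher and 3.47% lower; LIMS1 was the member among the higher ones.

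Counts within one library can be set against each other with no scaling between libraries. For each count of ILK there were 0.387 counts of LIMS1 with the vector and 2.21 with PKP2, a 5.70-fold difference (interval 5.02 to 6.48). Set against the other partners, the difference for LIMS1 was 6.06-fold with PARVB, 4.84-fold with PARVA, 4.77-fold with RSU1 and 4.13-fold with FERMT2 (interval 3.69 to 4.63). The partners shifted far less against ILK. FERMT2 per ILK was 1.38 times as high in the PKP2 library (interval 1.25 to 1.53), RSU1 1.20 times (1.07 to 1.33), PARVA 1.18 times (1.01 to 1.38) and PARVB 0.942 times (0.833 to 1.06). These ratios are not adjusted for GC content. It was 56.0% in ILK, 53.2% in PARVB, 44.2% in PARVA, 43.5% in RSU1 and 41.7% in FERMT2. Their 100 nearest genes had median log2 ratios of -0.16 for ILK, -0.11 for PARVB, 0.11 for PARVA, 0.15 for RSU1 and 0.19 for FERMT2. The nearest genes of FERMT2, RSU1 and PARVA thus also stood above those of ILK, which is not taken out here. LIMS1 had a GC content of 45.6%, and its nearest genes had a median of 0.10. That median is above those for ILK and PARVB and below those for PARVA, RSU1 and FERMT2. It is likewise not taken out of the differences for LIMS1. Against each of these 5 partners LIMS1, counted without its copies, was thus more than 4-fold higher with PKP2, while no partner differed by 1.5-fold against ILK. Summed with its copies, LIMS1 had a log2 ratio of 1.94 instead of 2.43, so each of its differences would be smaller with the sum.

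Levels of different genes were compared per kilobase of transcript. In the vector library, with each gene's principal transcript, FERMT2 came first at 29.0 CPM per kilobase, followed by ILK at 26.5, RSU1 at 16.7, LIMS1 at 11.4, PARVB at 8.81, PARVA at 2.17 and LIMS2 at 0.062. In the PKP2 library LIMS1 came first at 61.5, followed by FERMT2 at 38.0, ILK at 25.2, RSU1 at 18.9, PARVB at 7.87, PARVA at 2.42 and LIMS2 at 0.146. LIMS1 made up 12.0% of the summed level of the 7 members with the vector and 39.9% with PKP2. The length of LIMS1 matters here. With the longest transcript of each gene (4461 bases for LIMS1 against 1876) its share was 6.35% and 25.4%. In the PKP2 library its 25.8 CPM per kilobase then lay beside the 25.2 of ILK. The order in the vector library became ILK, RSU1, FERMT2, PARVB, LIMS1, PARVA and LIMS2. Neighbours in the order have no spread over replicates, so their order is a description of these libraries.

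**Figure D3:**
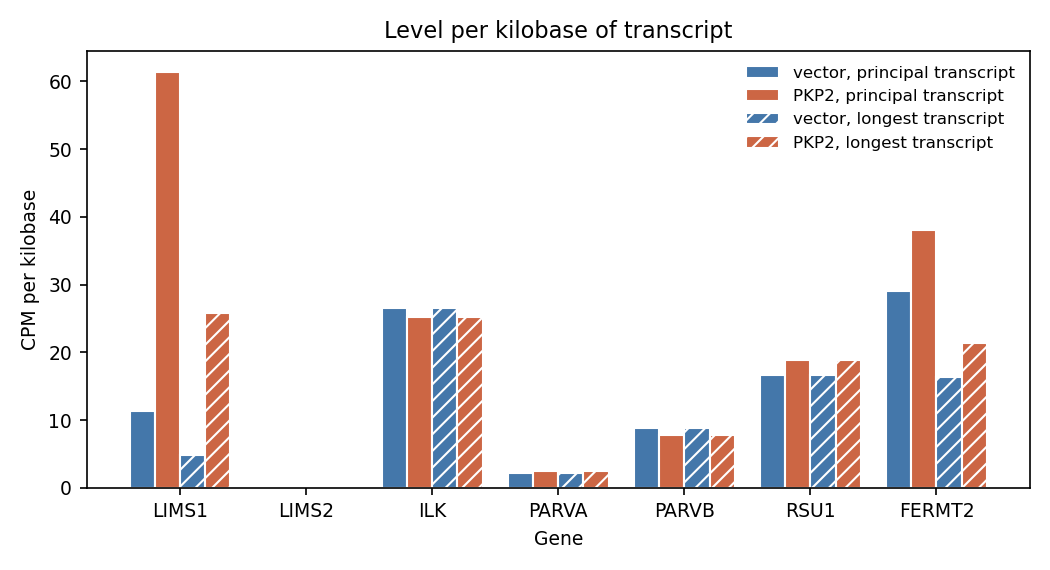
CPM per kilobase of transcript for each member in the vector library (blue) and the PKP2 library (orange), with the principal transcript (plain) or the longest transcript (hatched) as the length. With principal transcripts LIMS1 lies below FERMT2, ILK and RSU1 in the vector library, at 11.4, and above all other members in the PKP2 library, at 61.5; the bars of LIMS2 are too low to see.

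Genes next to LIMS1 on chromosome 2 did not share its ratio, but LIMS1 was picked because its ratio was large. All of the neighbours looked up were within 2-fold, as were 92.9% of all genes. Whether the region as a whole differed between the libraries was not tested. The 5 listed genes on each side with a mean of at least 10 counts, looked up after the values were seen and placed by GENCODE 29, ranged from -0.88 for SH3RF3 (102 and 47 counts) to 0.36 for RGPD3, with a median of 0.06. The nearest on each side were GCC2, a golgin of the trans-Golgi, at -0.17 (1297 and 981 counts) and RANBP2, a nucleoporin, at 0.33 (7244 and 7732 counts). NCK2, an adaptor that binds PINCH1, lies 5 genes to one side and was at -0.11. Among genes whose mean reached 100 counts, those with ratios nearest to that of LIMS1, by absolute difference of log2 ratios over the 2 libraries, were the pseudogene LRRC37A17P (2.47), the chromatin protein gene ADNP (2.36), the glycosyltransferase gene GALNT16 (2.31), ENSG00000257341 (2.58) and the small GTPase gene RHOQ (2.64).

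**Figure D4:**
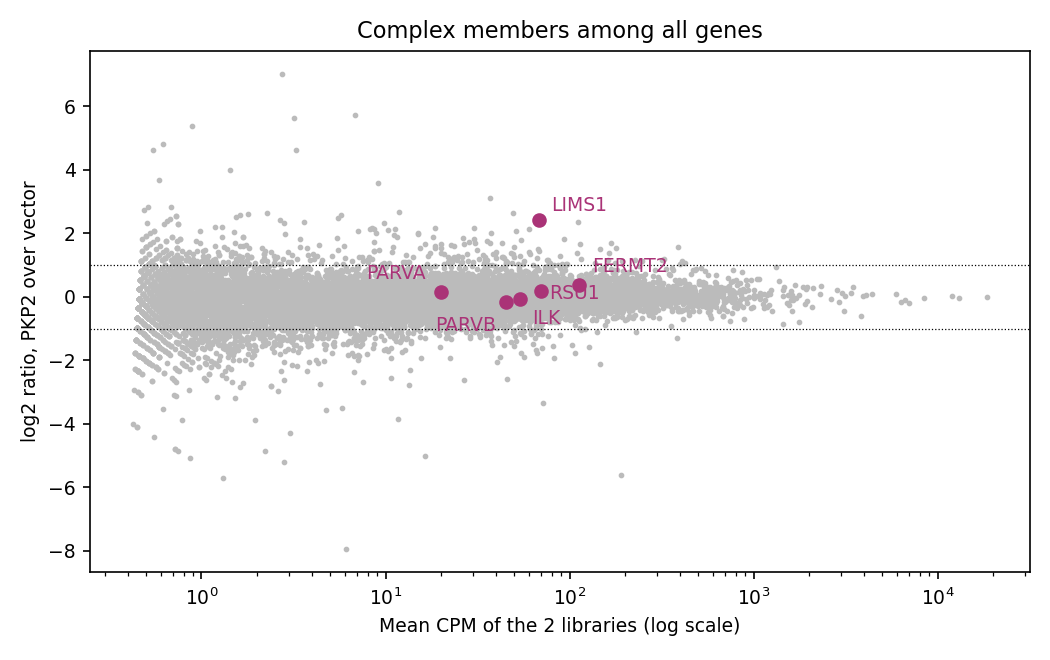
Log2 ratio of the PKP2 library over the vector library against mean CPM (log axis) for genes whose mean reached 10 counts, with at least 1 count in each library (grey), with the 6 members that have such a mean in purple; dotted lines mark 2-fold. LIMS1 lies above nearly all genes of its level, and the other 5 members lie within the main band.

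All 16 genes whose proteins are reported to bind the complex were within 2-fold, as were 92.9% of all genes. Their median ratio was -0.05 beside -0.03 over all genes. None had a ratio near that of LIMS1, which was picked because its ratio was large. Farthest from 0 were LPXN, the adaptor leupaxin, at -0.87 with only 58 and 27 counts, TGFB1I1, the paxillin relative Hic-5, at 0.51 (129 and 156 counts), TMSB4X, the actin monomer binder thymosin beta-4, at -0.42, and IQGAP1, a scaffold that binds ILK, at 0.42 (10533 and 11953 counts). PXN, the adaptor paxillin, was at 0.07 and NCK1 at -0.04.

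Genes of integrin activation and focal adhesion adaptors had a median of -0.10. Of 22 with enough counts (a mean of at least 10), 2 were at least 2-fold higher, none lower and 20 within, beside 2.47% and 4.61% of all genes. NEDD9, a scaffold of the Cas family, had 1197 and 2124 counts and stood at 1.06 (interval 0.96 to 1.17). RAP1B, a small GTPase that activates integrins, had 1376 and 2336 counts and stood at the 2-fold mark, at 1.00 (interval 0.90 to 1.10), or at 0.74 relative to its nearest genes. TNS2, a tensin, was at -0.91 and CRK, an adaptor of paxillin and Cas proteins, at -0.73.

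Among 15 integrin subunit genes the median was 0.02, with 1 at least 2-fold higher, 1 lower and 13 within (2.47% and 4.61% of all genes were higher and lower). ITGA4, a subunit of receptors for fibronectin and VCAM-1, had 121 and 23 counts and stood at -2.16 (interval -2.87 to -1.51). ITGB4 was at 1.13 with 7 and 13 counts, its interval from -0.30 to 2.70 takes in 0, and it was not past 2-fold with 1 CPM added. ITGA6, a laminin-binding subunit, stood at 0.83 and ITGA2, a collagen-binding subunit, at -0.80. ITGB1, whose tail kindlin-2 binds, had 10362 and 11645 counts, a ratio of 0.41.

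Of 36 other LIM domain genes of adhesions and actin with enough counts, 3 were at least 2-fold higher, 4 lower and 29 within, beside 2.47% higher and 4.61% lower over all genes. Their median was -0.31. Relative to the nearest genes in GC content and length it was -0.11, and 1 gene was higher and 3 lower. The higher ones were CSRP1, an actin-crosslinking protein, at 1.12 (2886 and 5324 counts), FHL1 at 1.10 (200 and 363 counts) and PRICKLE1, of planar polarity, at 1.00 (572 and 971 counts). The lower ones were FHL3 at -2.13 (72 and 14 counts), LIMD2 at -1.65 (48 and 13 counts), ABLIM3 at -1.31 (248 and 85 counts) and CRIP1 at -1.02 (1099 and 461 counts). None of these reached the ratio of LIMS1 on the higher side, but LIMS1 was picked because its ratio was large. The 13 signalling genes linked to ILK were all within 2-fold, as were 92.9% of all genes, and their median was 0.06. AKT2 at -0.48 and MRTFA, a coactivator of serum response factor, at -0.48 were the lowest, followed by SRF itself at -0.45. RICTOR, of mTOR complex 2, was the highest at 0.41.

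**Figure D5:**
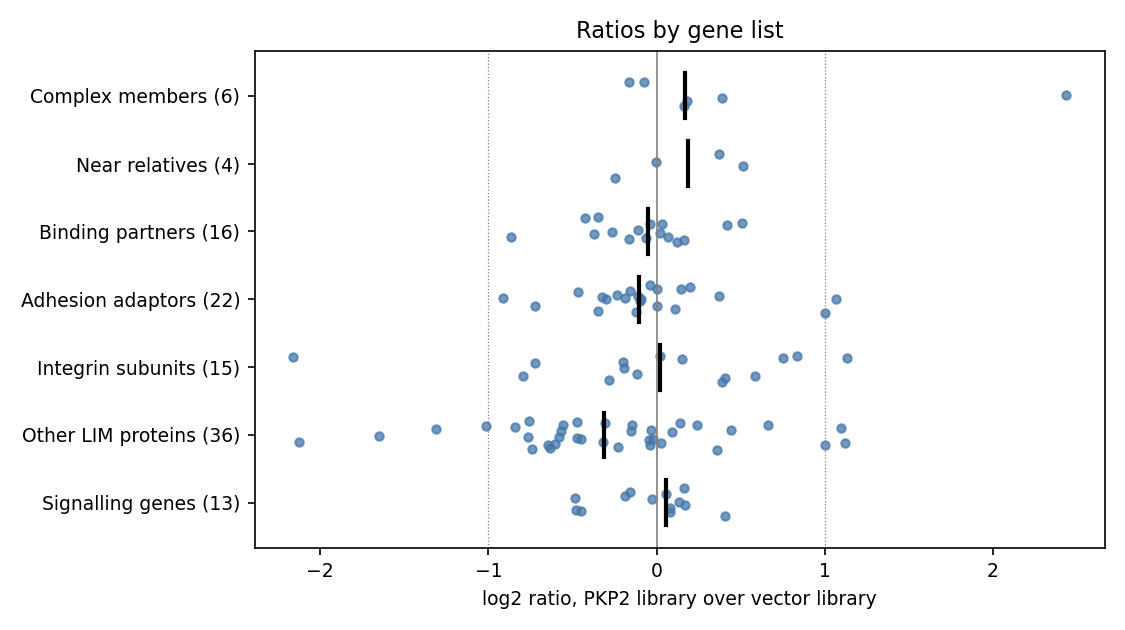
Log2 ratios of the PKP2 library over the vector library by gene list, for genes whose mean reached 10 counts (number in parentheses); each point is a gene, black bars are medians and dotted lines mark 2-fold. LIMS1, at 2.43, is the point farthest to the right, and the list medians lie between -0.31 and 0.19.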

How the data were processed

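Per the labels' protocols, a TruSeq RNA kit turned total RNA into sequencing libraries. Bowtie 0.12.2 and the builds GRCh37 and hg19 come from the submitters' processing notes. Which program counted reads, with which annotation and whether by strand, is not given in the sources used here. The authors deposited unnormalized values per gene, called estimated counts here as per the file headers they are counts and 1 damaged row holds a decimal; no rounding was needed. In each file 2 unreadable rows were left out.

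CPM used totals times TMM factors (1.01 vector, 0.991 PKP2; edgeR 4.0.16, R 4.3.3), for scaling only: with 1 library per group no edgeR test was possible. Ratios have exact binomial (Clopper-Pearson) 95% intervals, and within-library ratios exact conditional intervals of the odds ratio. Intervals cover counting error only, since there is 1 library per group. Such reads carry no molecular identifiers, so repeated reads of the same molecule could not be taken out and the intervals may be too narrow. The floor of 3 counts corresponds to 0.126 CPM (vector) and 0.149 CPM (PKP2). Principal transcripts, GC content, exon overlaps, neighbours and shared 31-base stretches came from GENCODE 29 (GRCh38), joined by gene ID because its build differs from that of the files; its coordinates are not printed. Coding sequences were aligned locally with Biopython 1.88. Ratios, the 2-fold mark and binomial intervals were tried on simulated Poisson counts with known changes. TMM scaling, nearest genes, shared stretches, sums and within-library ratios were not part of that trial.

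Members and lists were chosen with earlier results of these data known. Named genes were PKP2, the members and near relatives, genes of other lists past 2-fold or among the 4 farthest from 0, genes sharing sequence with a member, and the 5 nearest to LIMS1 in ratio; others were chosen after their values were seen. Genes sharing at least 50 stretches with a member through repeats are given only as sums. Alternatives were DESeq2 1.42.0 size factors, totals, added CPM, count filters, thresholds, nearest genes, longest transcripts and summed counts.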

Additional observations from a re-analysis of the deposited data

How the results depend on the processing

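Of 234 alternative values, 198 stayed within the counting interval, the interval over list members or 1.5 times the main count, and 36 did not; no ratio past 2-fold changed sign. LIMS1 had a ratio of 2.19 with 5 CPM added, 1.94 summed with its copies, and 0.32 summed with all 9 genes that share at least 50 stretches with it, of which LIMS1 held only 0.621% of the vector counts. The same kind of sum gave FERMT2 0.019, but FERMT2 held only 5.38% of its vector counts and 6.95% of its PKP2 counts. Relative to nearest genes in GC content and length, ILK was at 0.087, RSU1 at 0.035 and FERMT2 at 0.20. With no filter, 2 members were at least 2-fold higher, the other being LIMS2. Adhesion adaptors at least 2-fold higher numbered 1 with totals, with 1 CPM added or relative to nearest genes, 0 with 5 CPM added and 0 at 3-fold; those lower numbered 2 with no filter and 2 at 1.5-fold. Binding partners lower at 1.5-fold numbered 1. Integrin subunits higher numbered 0 with 1 or 5 CPM added, with a mean of at least 50 counts or at 3-fold, and 4 at 1.5-fold; those lower numbered 0 with 5 CPM added, 2 relative to nearest genes and 3 at 1.5-fold. Other LIM genes higher numbered 1 with 5 CPM added, 1 relative to nearest genes and 0 at 3-fold; those lower numbered 2 with 1 CPM added, 0 with 5 CPM added, 2 with a mean of at least 50 counts, 11 at 1.5-fold and 2 at 3-fold. The cause was not tested. No paired analysis was possible because each group has 1 library. Depth limits LIMS2, with 9 counts in all.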
